A study of Homo sapiens and Mus musculus with 54 samples.

Results

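The 30 genes described here encode cytochrome P450 enzymes outside the CYP1 family. They were taken as a named list of 12 CYP2, 4 CYP3 and 6 CYP4 genes and 8 genes of other families, out of 19974 protein-coding genes in the RefSeq annotation of GRCh38.p14. A peak was counted for a gene when it lay within 50 kb of the gene body, and once per locus where the windows of neighbouring genes met, which gave 24 loci. The study asked how vitamin B2 supply bears on AhR in liver cells; AhR, the aryl hydrocarbon receptor, is a transcription factor switched on by its ligands. It used HepG2, a human liver cancer cell line, kept as control (Cont) or without vitamin B2 (B2_minus) until day 12. AhR ChIP-seq had 2 Cont and 2 B2_minus libraries, and so did C/EBPα, a liver transcription factor. H3K27ac, acetylation of histone H3 found at active promoters and enhancers, had 5 Cont and 5 B2_minus libraries. A further H3K27ac experiment had 2 Cont libraries with DMSO, 2 B2_minus libraries with DMSO and 2 B2_minus libraries with an AhR inhibitor, and inputs came with the AhR and C/EBPα ChIP.

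Each experiment was represented by 1 list of peak positions that is not divided into libraries. The values below are therefore counts and positions of peaks over an experiment as a whole, with no replicate error. No difference between B2_minus and Cont, or between inhibitor and DMSO, was measured at any gene, and the depth is unknown. The H3K27ac list of the experiment without DMSO or inhibitor is called the inhibitor-free list, although that experiment had B2_minus as well as Cont libraries, and the other the inhibitor-experiment list. The number at the end of a peak's name was read as how many peaks were merged into it, and a peak with 2 or more is called merged. At HNF4A, a defining hepatocyte factor, the inhibitor-free list had 39 regions.

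Cytochrome P450 enzymes are haem proteins of the endoplasmic reticulum or mitochondria that insert oxygen into drugs, steroids, fatty acids and vitamins. The microsomal forms receive electrons from P450 oxidoreductase, a flavoprotein that carries FMN and FAD, both made from vitamin B2. Many liver forms are controlled by the nuclear receptors PXR and CAR and by factors such as HNF4α and C/EBPα, whereas the CYP1 genes are the classical AhR targets, and HepG2 cells are known for low levels of many of these enzymes compared with primary hepatocytes.

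The AhR peaks that met a P450 gene start were few, and the promoters concerned are shown because a peak's exact place is the datum. Each line gives the 250 bases before a start listed by RefSeq, on the gene's own strand. Capitals mark the bases under the AhR peak, except in CYP2S1, where they mark the bases under a C/EBPα peak.
CYP4V2, chr4:186191317-186191566, plus strand: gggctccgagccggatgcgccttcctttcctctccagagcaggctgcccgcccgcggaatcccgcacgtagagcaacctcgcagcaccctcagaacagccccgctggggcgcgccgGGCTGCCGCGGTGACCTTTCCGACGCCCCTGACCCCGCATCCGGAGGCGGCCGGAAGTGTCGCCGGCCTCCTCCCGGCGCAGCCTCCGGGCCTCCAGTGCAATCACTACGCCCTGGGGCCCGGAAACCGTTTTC
CYP19A1, chr15:51318498-51318747, minus strand: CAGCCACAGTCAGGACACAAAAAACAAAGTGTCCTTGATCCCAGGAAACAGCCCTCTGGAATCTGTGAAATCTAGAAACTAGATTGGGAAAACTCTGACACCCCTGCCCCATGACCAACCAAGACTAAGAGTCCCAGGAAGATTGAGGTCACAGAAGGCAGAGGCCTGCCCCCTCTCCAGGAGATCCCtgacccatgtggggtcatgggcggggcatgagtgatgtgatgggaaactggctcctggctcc
CYP4F3, chr19:15641062-15641311, plus strand: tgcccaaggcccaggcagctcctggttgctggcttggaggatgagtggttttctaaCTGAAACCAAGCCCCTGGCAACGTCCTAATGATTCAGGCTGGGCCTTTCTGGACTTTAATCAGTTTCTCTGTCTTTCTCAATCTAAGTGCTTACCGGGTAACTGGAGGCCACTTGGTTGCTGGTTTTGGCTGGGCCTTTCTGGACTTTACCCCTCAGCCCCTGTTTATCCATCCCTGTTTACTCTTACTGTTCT
CYP4F11, chr19:15934530-15934779, minus strand: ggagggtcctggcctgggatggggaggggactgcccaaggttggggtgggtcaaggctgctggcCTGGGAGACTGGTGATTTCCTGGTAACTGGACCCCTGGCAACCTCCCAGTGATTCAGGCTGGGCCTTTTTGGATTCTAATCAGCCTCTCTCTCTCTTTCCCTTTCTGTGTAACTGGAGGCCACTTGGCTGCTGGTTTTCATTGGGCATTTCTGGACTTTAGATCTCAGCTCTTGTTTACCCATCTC
CYP2S1, chr19:41192969-41193218, plus strand: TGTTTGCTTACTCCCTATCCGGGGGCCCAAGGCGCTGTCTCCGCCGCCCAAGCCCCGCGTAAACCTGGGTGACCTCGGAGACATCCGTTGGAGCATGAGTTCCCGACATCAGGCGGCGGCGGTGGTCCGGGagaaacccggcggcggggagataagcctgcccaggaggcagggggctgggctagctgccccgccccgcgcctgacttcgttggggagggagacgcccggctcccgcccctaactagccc

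CYP4V2 encodes a fatty acid hydroxylase whose loss causes a crystalline retinal dystrophy, and CYP19A1 encodes aromatase, which makes oestrogens from androgens. CYP4F3 encodes a leukotriene and fatty acid hydroxylase, CYP4F11 a related enzyme, and CYP2S1 a mostly extrahepatic enzyme. The AhR peak covered 134 of the 250 bases in CYP4V2, 188 in CYP19A1, 194 in CYP4F3 and 186 in CYP4F11, and the C/EBPα peak covered 131 in CYP2S1. The AhR peaks at CYP4V2, CYP19A1 and CYP4F3 overlapped a C/EBPα peak, and the one at CYP4F11 did not. The CYP19A1, CYP4F3 and CYP4F11 starts lie inside their gene bodies, so longer transcripts begin before them. CYP4F3 and CYP4F11 shared a run of 19 bases, TGATTCAGGCTGGGCCTTT, that begins 165 bases before the start in CYP4F3 and 137 bases before it in CYP4F11, under the AhR peak in both. The other pairs of these 5 promoters shared at most 9 bases in a row. Reads from near-identical stretches of such paralogs may have been placed at either gene, which was not tested.

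The core of the sequence that AhR and its partner ARNT are known to bind, GCGTG, was searched on both strands in the RefSeq window from 250 bases before to 50 bases from each listed start. It was found in 6 of 35 member promoters (17.1%) and in 43.0% of all 22132 promoters. The 35 include 7 promoters of CYP19A1, none of which held it. By gene, 6 of 24 members held it, and the share by gene over all genes was not counted. The longer form TNGCGTG, which contains the core, was found in 1 member promoter (2.86%), that of CYP20A1, against 6.28% of all. The C/EBP motif TTGCNNAA was found in 5 member promoters (14.3%), against 8.69% of all. These were 3 promoters of CYP19A1, of which 2 overlap and share a motif, and those of CYP26B1 and CYP2B6, so 3 of 24 genes held it. Among the peak-covered promoters, CYP4V2 alone held GCGTG, from base 23 of the transcript, which lies under its AhR peak. Peaks outside these windows were not searched for motifs.

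At the level of whole loci, AhR peaks were common around P450 genes, about as common as around other genes. An AhR peak lay within 50 kb of 29 of the 30 genes, against 85.4% of all protein-coding genes, and the exception was CYP26B1, which clears retinoic acid. C/EBPα peaks were found at 30 of 30 genes (88.6% of all genes) and H3K27ac regions of the inhibitor-free list at 30 of 30 (90.4% of all genes). The inhibitor-experiment list had a region at 29 of 30 (88.1% of all genes), and the exception was CYP4A11, a fatty acid hydroxylase. In all, the 24 loci held 132 AhR peaks, 141 C/EBPα peaks, 199 regions of the inhibitor-free list and 170 of the inhibitor-experiment list.

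The median gene of the list had 4 AhR peaks, as did the median protein-coding gene, and the members ranged from 0 to 15. Per 100 kb of window the medians were 2.65 AhR peaks in the members and 2.58 in all genes. For C/EBPα the medians per gene were 5 and 4, for the inhibitor-free H3K27ac list 6.5 and 7, and for the inhibitor-experiment list 5 and 6. These shares and medians lie near those of all genes, and no test was made of the differences. At the edge of the window, the AhR peak last inside it lay 49570 bp from CYP3A5, and the first outside it lay 50632 bp from CYP4F3.

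**Figure D1:**
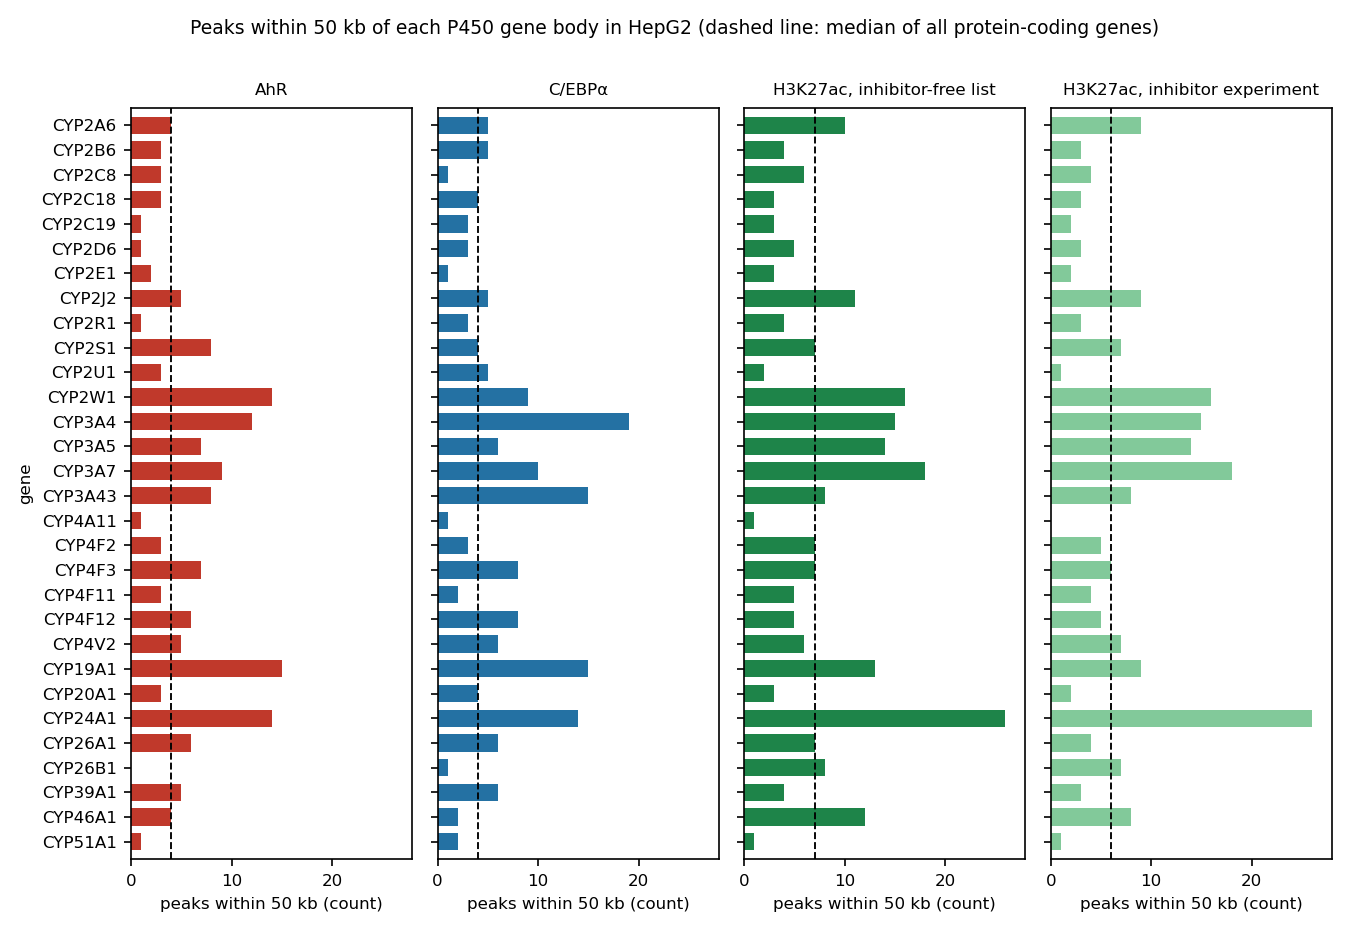
Bars give the number of peaks within 50 kb (horizontal axis, count) of each of the 30 cytochrome P450 genes (vertical axis) in each of the 4 HepG2 lists, and the dashed lines give the median of all protein-coding genes. CYP19A1 has 15 AhR peaks, CYP2W1 and CYP24A1 have 14 each and CYP26B1 has 0, and the longest H3K27ac bar is the 26 of CYP24A1.

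Many of these peaks lay closer to another gene. Of the 132 AhR peaks, 38 lay inside a P450 gene and 94 outside, and a member was the nearest protein-coding gene for 70 and not for 62. At CYP2C19, CYP2D6, CYP2R1, CYP2S1, CYP2U1 and CYP20A1 no AhR peak in reach had the gene as its nearest. Within 10 kb, 22 of 30 genes had an AhR peak (64.6% of all genes), and inside the gene body 15 of 30 did (47.0%). For C/EBPα these counts were 23 (70.8%) and 15 (51.4%), for the inhibitor-free H3K27ac list 23 (72.9%) and 19 (51.8%), and for the inhibitor-experiment list 22 (70.0%) and 18 (49.8%). Within 1 kb of a listed start, 5 of the 24 genes with one had an AhR peak (15.7% of all genes with a listed start) and 8 had a C/EBPα peak (23.4%). None of the 24 had an H3K27ac region so close in the inhibitor-free list (1.79% of all) or in the inhibitor-experiment list (1.70%).

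At the P450 loci AhR peaks overlapped C/EBPα in a share near that of the whole list, and H3K27ac in a lower share. Of the 132 AhR peaks, 71 (53.8%, 95% Wilson interval 45.3 to 62.1) overlapped a C/EBPα peak by at least 1 bp, against 55.3% of the whole AhR list. An H3K27ac region of the inhibitor-free list met 75 (56.8%, 48.3 to 65.0), against 70.7% of the whole list. Both partners met 46 (34.8%, 27.3 to 43.3; 41.1% of the whole list), and neither met 32 (24.2%, 17.7 to 32.2; 15.1% of the whole list). The intervals cover counting error only and are too narrow, since neighbouring peaks are not independent.

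The place of the peaks moved with that H3K27ac share. At the P450 loci 28 AhR peaks (21.2%) lay within 3 kb of a listed start of any gene, against 9.5% of the whole list. The peaks at the P450 loci were chosen within 50 kb of a gene body, whereas the whole list has no such limit. A larger share near starts can follow in part from that choice, so the difference is not shown to be particular to the P450 loci. None of the 28 overlapped an H3K27ac region (95% Wilson upper bound 12.1%), and 5.71% of such peaks in the whole list did. Both H3K27ac lists had a step at that distance: the inhibitor-free list had 226 regions from 2500 to 3000 bp of a start and 1463 from 3000 to 3500 bp, whereas the AhR list had 626 and 597. Absence of an H3K27ac region near a start therefore says little about acetylation there. This limit applies to every locus below, where partners are given without regard to the distance from a start. Among the 104 AhR peaks beyond 3 kb, 72.1% overlapped an H3K27ac region, against 77.5% in the whole list, and 44.2% had both partners, against 45.1%. The part of the step in the lower share was not tested beyond this, and the part of the choice of peaks near genes was not tested.

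**Figure D2:**
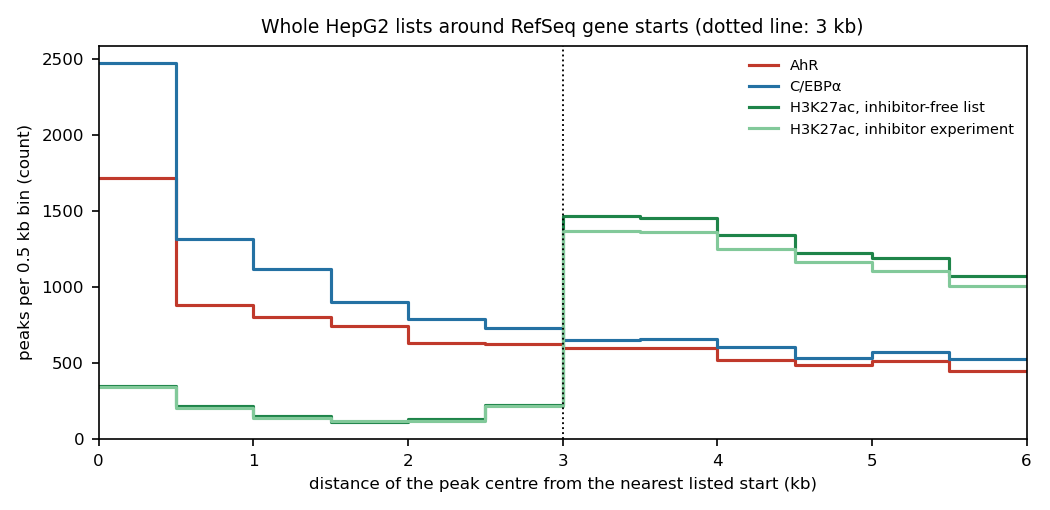
Lines give the number of peaks of each whole HepG2 list per 0.5 kb bin (vertical axis, count) by distance of the peak centre from the nearest listed RefSeq start (horizontal axis, kb), with a dotted line at 3 kb. Both H3K27ac lists rise sharply there, from 226 to 1463 regions in the inhibitor-free list, and the AhR and C/EBPα lists do not.

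Where AhR and C/EBPα peaks overlapped, their centres were a median of 22.0 bp apart at the P450 loci (n = 71) and 21.5 bp in the whole list. C/EBPα peaks of merge number 3 overlapped an AhR peak in 55 of 71 cases (77.5%), those of merge number 2 in 6 of 19 (31.6%) and those of merge number 1 in 10 of 51 (19.6%). The whole list gave 76.7%, 43.6% and 27.7% in the same order. Merged peaks made up 63.0% of the AhR peaks with both partners (29 of 46) and 18.8% of those with neither (6 of 32), against 63.8% and 13.3% in the whole list. Both gradients were thus near those of the whole lists.

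With peaks near starts counted, the share of AhR peaks with both partners was highest at the CYP3A locus and lowest at the CYP4 loci, with wide intervals. The CYP3A locus had 10 of 20 (50.0%, 29.9 to 70.1). The 11 CYP2 loci had 14 of 48 (29.2%, 18.2 to 43.2), the 4 CYP4 loci 4 of 16 (25.0%, 10.2 to 49.5) and the 8 loci of other families 18 of 48 (37.5%, 25.2 to 51.6). All these intervals overlapped. AhR peaks within 3 kb of a start, where the H3K27ac lists hold few regions, are included in these shares. None of the 28 such peaks had both partners, so they lower these shares. With them left out, the CYP3A share was still the highest, but CYP2 and not CYP4 was the lowest. The place of CYP4 as lowest therefore did not hold beyond 3 kb, and no test was made of the differences. By gene, 22 of 30 had an AhR peak with both partners, against 62.2% of all genes, and the 8 without one were CYP2C8, CYP2C18, CYP2E1, CYP2R1, CYP4A11, CYP20A1, CYP26B1 and CYP51A1.

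**Figure D3:**
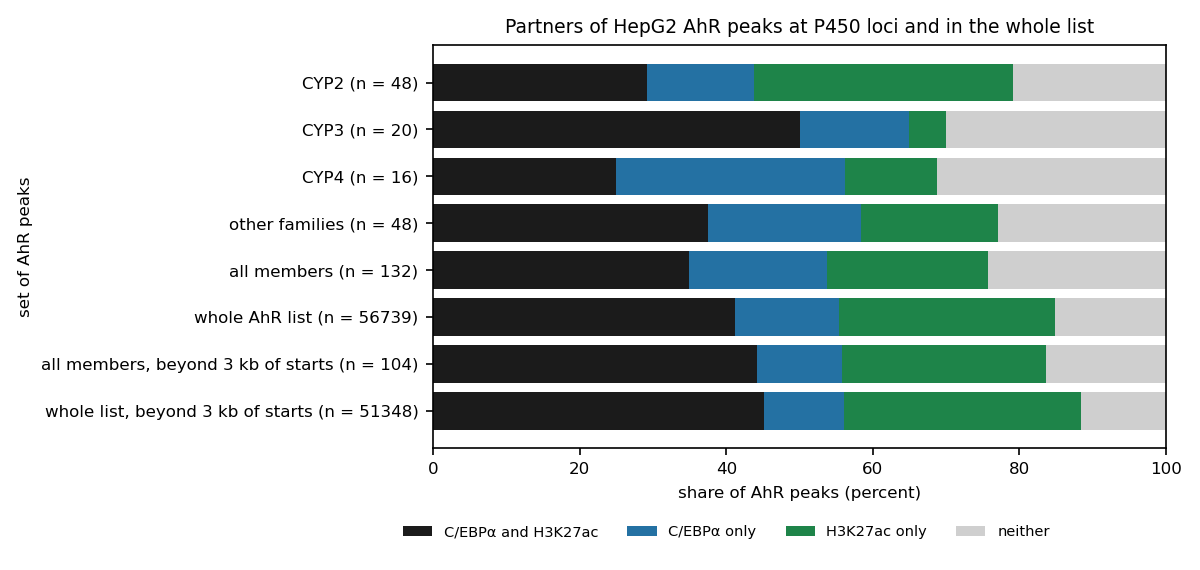
Stacked bars give the share of AhR peaks (horizontal axis, percent) that overlap C/EBPα and H3K27ac, C/EBPα only, H3K27ac only or neither, for each P450 family, for all members, for the whole AhR list, and for the last 2 beyond 3 kb of starts, with n as the number of peaks. Both partners meet 50.0% of the CYP3 peaks and 34.8% of all member peaks, against 41.1% of the whole list.

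The CYP3A locus holds the genes of the main drug-oxidising subfamily: CYP3A4, the chief form of adult liver, CYP3A5, the fetal form CYP3A7, and CYP3A43, a minor form. Over 318 kb of chromosome 7 (99598194 to 99916093) it had 20 AhR peaks, 26 C/EBPα peaks and 30 H3K27ac regions. All 30 regions had the same coordinates in the inhibitor-experiment list. Counted per gene, with peaks in reach of several genes counted for each, AhR peaks numbered 12 at CYP3A4, 9 at CYP3A7, 8 at CYP3A43 and 7 at CYP3A5.

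The 10 AhR peaks with both partners were spread over the locus. At CYP3A4 they were 1 peak 10.8 kb upstream of the start (99794796 to 99795103) and 1 inside the gene, 11.4 kb downstream of the start (99772668 to 99772913), both merged. CYP3A4 is known for a xenobiotic-responsive enhancer and, farther upstream, a constitutive liver enhancer, whose positions were not compared with the peaks. The peak 7.1 kb upstream of the CYP3A4 start (99791165 to 99791376) had neither partner. Inside the 3′ part of the gene 2 peaks lay close together, 1 with H3K27ac alone (99760140 to 99760357) and 1 with neither (99760450 to 99760661). No AhR peak lay within 1 kb of the CYP3A4 start.

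At CYP3A7 the peaks with both partners lay 7.6 kb upstream of the start (99742715 to 99742934) and, inside the gene, 5.5 kb (99729566 to 99729800) and 14.7 kb (99720366 to 99720615) downstream of it. A further peak inside CYP3A7, 2.0 kb from the start (99733068 to 99733326), had C/EBPα alone. Between CYP3A5 and CYP3A7, 1 peak with both partners lay 14.6 kb upstream of the CYP3A5 start (99694427 to 99694681). The peak inside CYP3A5, 2.2 kb downstream of the start (99677586 to 99677918), was merged and had neither partner. Beyond the far end of CYP3A5 lay 1 peak with both partners (99606534 to 99606857), nearest to TMEM225B, and 2 with neither (99616431 to 99616634 and 99631407 to 99631607), nearest to ZSCAN25.

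CYP3A43 was the CYP3A gene with an AhR peak within 1 kb of its start, 598 bp upstream (99827292 to 99827539), merged and overlapping C/EBPα. Inside the gene another peak with C/EBPα alone lay 1.7 kb from the start (99829558 to 99829772), and those with both partners lay 3.8, 16.0 and 32.7 kb from it (99831705 to 99831923, 99843902 to 99844102 and 99860547 to 99860798). Another AhR peak inside the gene, 28.6 kb from the start (99856478 to 99856701), had neither. The 4 genes are close paralogs, and how the submitters treated reads that fit several of them was not stated in the labels used here.

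**Figure D4:**
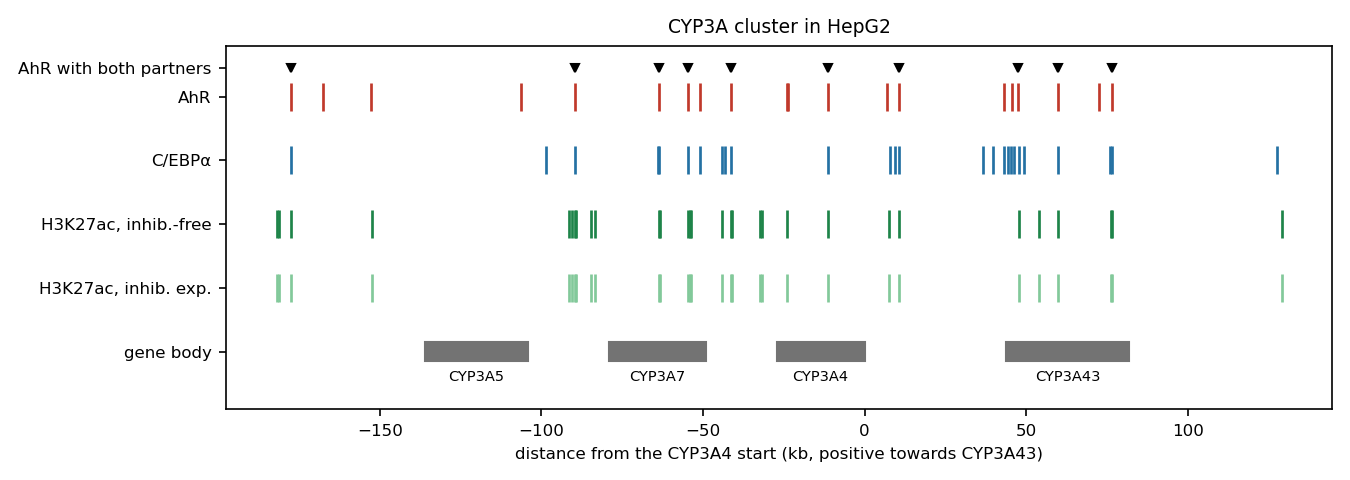
Ticks give the positions of peaks of the 4 HepG2 lists over the CYP3A locus, in kb from the CYP3A4 start (positive towards CYP3A43), with the 4 gene bodies as grey bars and AhR peaks with both partners as black triangles. The 30 H3K27ac regions of the inhibitor-free list recur at the same places in the inhibitor-experiment list, and 10 of the 20 AhR peaks carry a triangle.

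CYP19A1 had 15 AhR peaks, 12 of them with CYP19A1 as the nearest gene, and 15 C/EBPα peaks. The gene spans 130540 bp of chromosome 15 (51208057 to 51338596, minus strand) and has 7 listed starts, and is known for tissue-specific promoters. With peaks near starts counted, most of its AhR peaks with C/EBPα lacked H3K27ac: 7 had C/EBPα alone, 3 both, 2 H3K27ac alone and 3 neither. Those with C/EBPα alone include peaks 174, 480 and 546 bp from listed starts, where the H3K27ac lists hold few regions. Beyond 3 kb of a start, peaks with C/EBPα alone and with both differed little in number.

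A group of 6 AhR peaks lay between 51311626 and 51319164, around the start whose promoter is printed above. Of these, 1 was 174 bp upstream of that start (51318560 to 51318783) and 1 was 546 bp upstream (51318923 to 51319164), both with C/EBPα. The next 3 lay 3.3, 4.6 and 6.2 kb downstream (51315031 to 51315311, 51313749 to 51314042 and 51312218 to 51312473), merged and with C/EBPα, and the sixth lay 6.7 kb downstream (51311626 to 51311870), merged, with neither partner. No H3K27ac region of either list overlapped these 6 peaks, although 4 of them lay beyond 3 kb of that start.

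Elsewhere at CYP19A1, a peak 480 bp upstream of another start (51288694 to 51288943) had C/EBPα alone, as did 1 beyond the 3′ end (51200386 to 51200654). Both partners met the peaks at 51203934 to 51204180, at 51299116 to 51299386 and, nearer to GLDN, at 51366926 to 51367171. H3K27ac alone met those at 51299466 to 51299674 and 51367328 to 51367550. The peaks at 51228511 to 51228742, inside the gene, and at 51388145 to 51388430 had neither. Of the 13 H3K27ac regions here, 8 recurred in the inhibitor-experiment list and 5 did not, the most at any P450 locus.

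CYP24A1, the mitochondrial enzyme that inactivates vitamin D, had the densest H3K27ac of the 30 genes, with 26 regions or 19.9 per 100 kb, and 14 AhR and 14 C/EBPα peaks. All 26 regions recurred at the same coordinates in the inhibitor-experiment list, and all 14 C/EBPα peaks were merged. The gene lies on chromosome 20 (54143538 to 54173986). Of the 14 AhR peaks, 9 had both partners, the most at any single gene.

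All but 1 of those 9 lay on the lower-coordinate side of CYP24A1. They came mostly in neighbouring pairs, 9.8 and 10.5 kb from the gene body (54133491 to 54133726 and 54132850 to 54133063), 19.5 and 20.3 kb (54123842 to 54124067 and 54123021 to 54123230) and 39.2 and 39.9 kb (54104144 to 54104350 and 54103422 to 54103625), with single peaks at 27.4 kb (54115925 to 54116158) and 35.7 kb (54107563 to 54107841). BCAS1 was the nearest gene of the farthest pair. The remaining peak with both partners lay 20.9 kb beyond the other end (54194871 to 54195134), nearest to PFDN4.

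The other AhR peaks at CYP24A1 had fewer partners. C/EBPα alone met 1 peak at 31.0 kb (54112324 to 54112570) and 1 at 33.7 kb, on the PFDN4 side (54207664 to 54207884). H3K27ac alone met the peak inside the gene (54169305 to 54169518). The peaks 2.3 kb (54141003 to 54141243) and 4.3 kb (54178321 to 54178529) from the gene had neither.

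**Figure D5:**
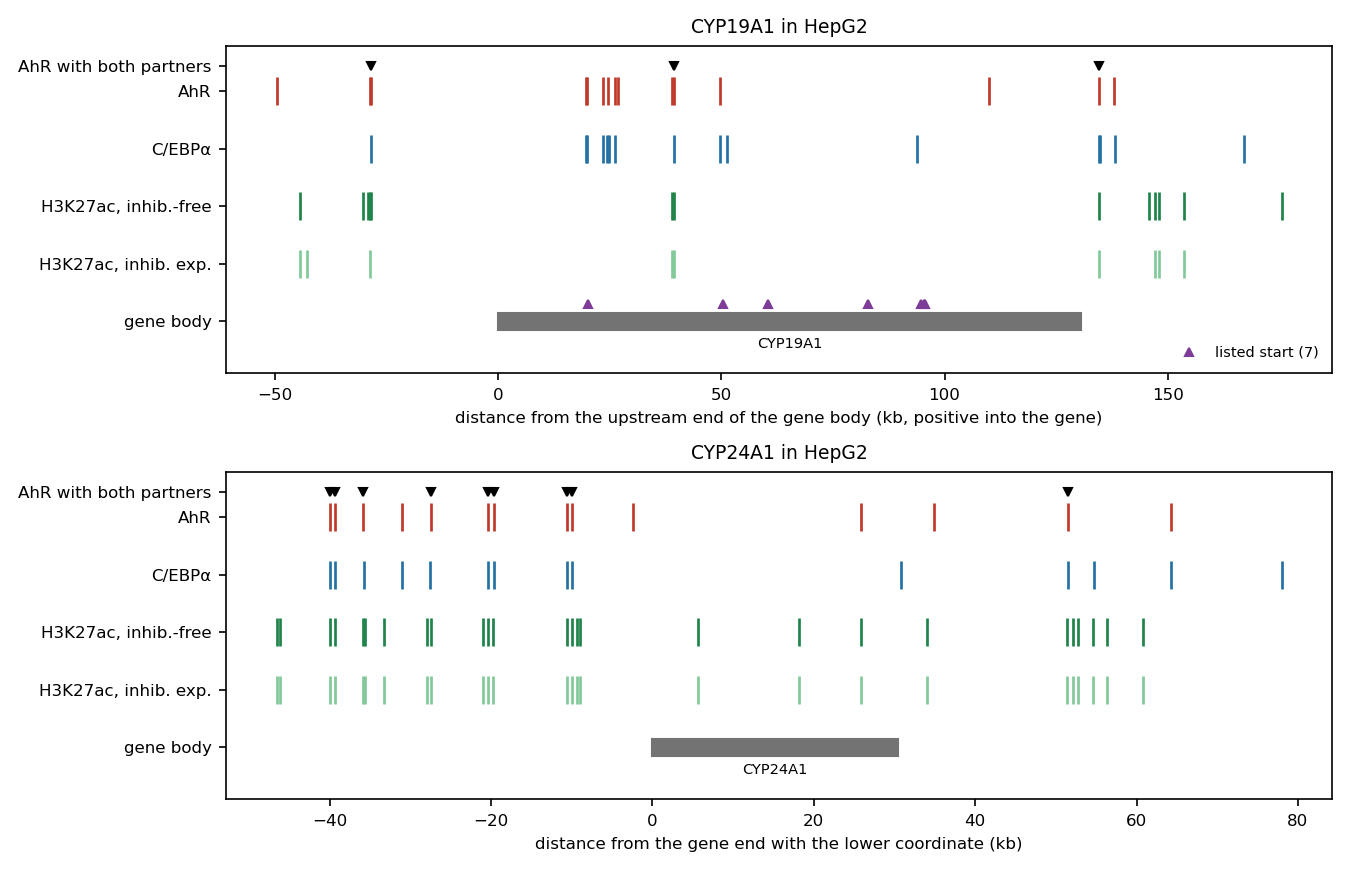
Ticks give the positions of peaks of the 4 HepG2 lists at CYP19A1 (upper panel, kb from the upstream end of the gene body, with 7 listed starts as purple triangles) and CYP24A1 (lower panel, kb from the gene end with the lower coordinate), with gene bodies in grey and AhR peaks with both partners as black triangles. At CYP19A1 a group of 6 AhR peaks, some within 3 kb of a listed start, has no H3K27ac region. At CYP24A1 8 of the 9 triangles lie on the lower-coordinate side of the gene.

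CYP2W1, an enzyme of fetal and tumour tissue, had the highest density of AhR peaks among the 30 genes, 14 peaks or 13.2 per 100 kb, with 9 C/EBPα peaks and 16 H3K27ac regions. The surrounding stretch of chromosome 7 is crowded with genes, and 13 of the 14 peaks had another gene as the nearest. The exception, inside CYP2W1 (986165 to 986407), lay in CHLSN too and had H3K27ac alone.

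Most AhR peaks at CYP2W1 overlapped H3K27ac without C/EBPα: 8 had H3K27ac alone, 1 had both, 1 C/EBPα alone and 4 neither. Downstream of the gene, 4 peaks with H3K27ac alone (991010 to 991282, 991547 to 991810, 991835 to 992216 and 992227 to 992606) were followed by the peak with both partners (992820 to 993074), all nearest to CHLSN. Upstream, nearest to COX19, 3 had H3K27ac alone (960464 to 960733, 963300 to 963508 and 964399 to 964626) and 1 had C/EBPα alone (972777 to 973052). Those with neither were at 945886 to 946088, nearest to ADAP1, and at 977038 to 977267, 977564 to 977841 and 990362 to 990610, nearest to CHLSN. The peaks at 945886, 977038 and 977564 lay 171, 1604 and 2154 bp from a listed start. The peak at 972777 lay 2634 bp from one. The H3K27ac lists hold few regions so near a start, so its absence there says little. All 16 H3K27ac regions recurred in the inhibitor-experiment list.

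CYP2S1, known from other systems as inducible by dioxin, had 8 AhR peaks, and none had CYP2S1 as its nearest gene. Upstream, 3 peaks had both partners (41159149 to 41159386, 41159978 to 41160194 and 41176246 to 41176451) and 1 had H3K27ac alone (41167174 to 41167393), all nearest to LOC124904790. Downstream, 4 peaks were nearest to AXL, a receptor tyrosine kinase gene: 1 with H3K27ac alone (41223567 to 41223775) and 3 with neither (41225704 to 41225916, 41226095 to 41226307 and 41226436 to 41226701). The 3 with neither lay 945, 554 and 186 bp from a listed start, where the H3K27ac lists hold few regions. Their lack of H3K27ac therefore says little about acetylation. Of the 8 AhR peaks, 1 was merged. The CYP2S1 promoter itself had the C/EBPα peak printed above and no AhR peak.

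The other CYP2 genes, which include several main drug-metabolising forms, had 1 to 5 AhR peaks each. CYP2J2, an arachidonic acid epoxygenase, had 5, of which 2 had both partners. CYP2A6, the nicotine-oxidising enzyme, had 4, and 3 of them had both partners, although all 4 lay over 10 kb from the gene. CYP2B6, a classical CAR target, had 3, of which 2 had both partners: 28.7 kb upstream of the start (40962434 to 40962753) and 9.2 kb downstream of it, inside the gene (41000352 to 41000577). CYP2C8, CYP2C18 and CYP2U1 also had 3 each and CYP2E1, the ethanol-oxidising form, 2. CYP2C19, CYP2D6 and CYP2R1 had 1 each, at 47.1, 42.8 and 15.5 kb. CYP2C19 and CYP2D6 oxidise many drugs, and CYP2R1 is a vitamin D hydroxylase.

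The CYP4 genes encode mainly fatty acid hydroxylases, and AhR peaks lay within 1 kb of a listed start in CYP4F3, CYP4F11 and CYP4V2. Besides the start peak printed above (15641118 to 15641327, 90 bp upstream), CYP4F3 had a peak 556 bp upstream with no partner (15640650 to 15640862) and a merged one 2.3 kb downstream with C/EBPα (15643472 to 15643697). CYP4F11 had its merged start peak 40 bp upstream (15934422 to 15934715) and a peak with both partners inside the gene (15926499 to 15926756). CYP4F12 had 2 merged peaks inside the gene, with C/EBPα alone close to a gene end (15673261 to 15673564) and with both partners (15681071 to 15681311). CYP4F2, which acts on vitamin K and leukotrienes, had a peak with both partners 8.5 kb beyond its 3′ end (15869331 to 15869565). The remaining 2 peaks of the CYP4F3 and CYP4F12 locus were nearest to CYP4F8 (15601123 to 15601387, on H3K27ac, and 15631868 to 15632112, on a region of the inhibitor-experiment list alone).

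CYP4V2 had 5 AhR peaks. The start peak, centred 21 bp upstream (186191433 to 186191659), had C/EBPα and the other 4 were nearest to KLKB1, the plasma prekallikrein gene. Of those 4, 2 had neither partner (186227339 to 186227556 and 186249871 to 186250095), 1 had both (186260555 to 186260768) and 1 had H3K27ac alone (186260923 to 186261168). CYP4A11 had 1 AhR peak, 689 bp beyond a gene end (46942165 to 46942388), with C/EBPα alone, and 1 H3K27ac region, which was absent from the inhibitor-experiment list.

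Among the enzymes of retinoids and sterols, CYP26A1, which clears retinoic acid, had 6 AhR peaks, of which 4 were merged with both partners and 2 had neither. Its paralog CYP26B1 had no AhR peak, 1 C/EBPα peak and 8 H3K27ac regions. CYP39A1, an oxysterol hydroxylase, had 5 AhR peaks and CYP46A1, the brain cholesterol hydroxylase, had 4, each with 1 on both partners. CYP51A1, the lanosterol demethylase of cholesterol synthesis, had 1 AhR peak, 1252 bp upstream of its start (92135625 to 92135833), with C/EBPα alone. CYP20A1, whose substrate is not established, had 3, none nearest to it.

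The second H3K27ac list was compared by identical coordinates. Of the 199 regions of the inhibitor-free list at the P450 loci, 166 (83.4%, 77.6 to 87.9) stood in the inhibitor-experiment list with the same start and end, against 87.4% of the whole list. Across the genome all 93202 regions with the same coordinates also had the same merge number, so the lists cannot be treated as independent. Absence from the inhibitor-experiment list is not a measure of the inhibitor's effect, since that experiment had DMSO libraries too and the labels do not say which libraries entered the list.

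The 33 regions of the inhibitor-free list alone were spread over 19 of the 24 loci, and 21 of 30 genes had at least 1 (54.6% of all genes). CYP19A1 had 5, CYP46A1 4 of 12 and CYP26A1 3 of 7. No such region occurred at the CYP3A, CYP24A1, CYP2W1, CYP4V2 and CYP51A1 loci. An AhR peak overlapped 6 of the 33 (18.2%, 8.61 to 34.4) and 68 of the 166 shared regions (41.0%), against 23.2% and 39.9% in the whole list. Those 6 lay 1 each at CYP19A1, CYP26A1, CYP2S1, CYP39A1, CYP46A1 and CYP4F3. Merged regions made up 66.7% of the 33 and 82.5% of the shared regions, against 63.9% and 80.2% in the whole list, and the part of the merge number in the AhR shares was not tested. The inhibitor-experiment list alone had 4 regions, 1 each at CYP19A1, CYP2S1, CYP4V2 and the CYP4F3 and CYP4F12 locus.

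Beside the enzymes stand genes that supply their electrons or bind them, relatives of these, and genes that control them. Of 8 genes for electron donors, their partners and relatives, PGRMC1 and FDX2 included, 7 had an AhR peak within 50 kb (85.4% of all genes). The median of the 8 genes was 8 AhR peaks, against 4 in the P450 genes and 4 in all genes. Per 100 kb of window they ran from 0 at PGRMC1 and 1.48 at FDX1 to 9.9 at POR. The medians per 100 kb were 2.65 in the P450 genes and 2.58 in all genes. Windows differ in length with the gene, and the part of window length was not tested. POR, the P450 oxidoreductase, had 17 AhR peaks, 8 of them with both partners, 25 C/EBPα peaks and 35 H3K27ac regions, all 35 at the same coordinates in the inhibitor-experiment list. Cytochrome b5 (CYB5A) had 13 AhR peaks, and CYB5B and CYB5R3, the flavoprotein that reduces cytochrome b5, had 11 each. The mitochondrial ferredoxin genes FDX1 and FDX2 and the ferredoxin reductase gene FDXR had 2, 5 and 3. PGRMC1, a haem protein that binds P450 enzymes, had none.

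Of 9 regulators of P450 genes, 9 had an AhR peak (85.4% of all genes), with a median of 9 against 4 in all genes. HNF4A had 18 AhR peaks, RXRA, the common nuclear receptor partner, and PPARA, the fatty acid receptor, 14 each, and NR1I3, which encodes CAR, 9. NR1I2, which encodes PXR, had 4, of which 2 had both partners. VDR, the vitamin D receptor that induces CYP24A1, had 5, and RARA, the retinoic acid receptor, 7. ONECUT1, a hepatocyte factor, had 9. SREBF2, the factor of cholesterol synthesis genes, had 5, none of them with both partners. Several of these regulator genes are longer than most P450 genes, so their windows are longer too. Per 100 kb of window, the regulators ran from 2.87 AhR peaks at SREBF2 to 10.1 at HNF4A. The medians were 2.65 in the P450 genes and 2.58 in all genes, and the part of window length was not tested.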

How the data were processed

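ChIP-seq for AhR, C/EBPα and H3K27ac was made in 30 HepG2 libraries of a series of 54. The authors deposited 4 HepG2 peak lists with 5 columns (name, chromosome, start, end, strand sign), per the files themselves. The deposited values are positions, with no score or count per library, so the planned comparisons of conditions could not be made. Per the submitters' processing notes, Bowtie2 and HOMER (no versions) and the builds hg38 and mm10 were involved. No label or header states the caller settings, the filters or which peak sets were merged. The 2 mouse lists were not used here.

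Gene bodies (19974 protein-coding genes) and promoters came from RefSeq tables of GRCh38.p14. Starts were listed for 15812 genes, 24 of the 30 members among them. CYP2C18, CYP2D6, CYP4A11, CYP4F12, CYP24A1 and CYP46A1 were measured from the gene body alone. Distances run from the peak centre to the nearest listed start or, for the gene body, from edge to edge.

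Peaks overlapped when they shared at least 1 bp. Members, windows, gene lists and alternatives (a 10 kb window, the gene body, the nearest gene, merged peaks, other overlaps) were chosen with earlier results of these data known. Every AhR peak was given for loci with an AhR peak within 1 kb of a start (of a gene end where no start is listed) and for the 5 loci with the most AhR peaks; members with no peak in a list were named, and promoters met by an AhR or C/EBPα peak were printed. Shares carry 95% Wilson intervals. Overlap and window routines, tested on simulated data, matched direct calculation for 2000 of 2000 peaks and 300 of 300 genes. Scripts ran under Python 3.11.15 with Matplotlib 3.10.9, SciPy 1.17.1, pandas 2.3.3 and NumPy 2.4.6.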

Additional observations from a re-analysis of the deposited data

How the results depend on the processing

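The number of peaks depended on the window. With a 10 kb window the P450 loci held 66 AhR peaks, 73 C/EBPα peaks, 81 regions of the inhibitor-free H3K27ac list and 73 of the inhibitor-experiment list, and inside gene bodies 38, 42, 41 and 39. Genes with a peak inside the body numbered 15 for AhR, 15 for C/EBPα, 19 for the inhibitor-free list and 18 for the inhibitor-experiment list. Merged peaks alone numbered 58 for AhR and 90 for C/EBPα. These falls follow from the smaller windows and fewer peaks counted. With merged peaks alone in every list, 65.5% of AhR peaks overlapped C/EBPα, 65.5% H3K27ac and 48.3% both. Within 10 kb the share with H3K27ac was 45.5% and with both 25.8%, and 88.9% of regions recurred in the inhibitor-experiment list; the cause was not tested. Beyond 3 kb of a listed start, an alternative chosen after seeing the data, the shares were 72.1% and 44.2%. Genes with a peak fell to between 22 and 23 in the 4 lists with the 10 kb window, were 23 to 25 when a peak counted for its nearest gene alone, and 27 to 30 with merged peaks alone, all within 1.5 times the reported counts. With the other overlap rules the AhR shares stayed inside their Wilson intervals, at 52.3% and 59.1% for C/EBPα, 55.3% and 58.3% for H3K27ac, and 33.3% and 37.9% for both. No paired analysis was possible because the lists hold positions with no value per library, and leaving out single libraries could not be run for the same reason. Depth, peak height and any effect of vitamin B2 or the inhibitor at these genes are unknown here.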
